A study of Homo sapiens with 6 samples.

Results

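The redox genes described here are 34 genes of the NRF2, glutathione and thioredoxin systems, chosen by name from a deposited table of 50868 genes. RNA sequencing gave their levels in KYSE-150, a long-used human cell line from a squamous carcinoma of the oesophagus, kept in RPMI medium with fetal bovine serum. A control group of 3 libraries is titled nc, and the series text calls these cells wild type. The other 3 libraries carry a genotype label that calls them a knockout of ZNF514 made with siZNF514, and the group is named siZNF514 here. An siRNA reduces the amount of a transcript and leaves the gene in place, so knockout is only the label's word. The labels do not say whether nc cells received a control siRNA, nor whether each library had its own culture. All p-values therefore rest on the spread among these 6 libraries alone, which may be technical. Bulk RNA does not tell less RNA per cell from fewer cells that carry it.

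NRF2, the protein made from NFE2L2, is a transcription factor that KEAP1 holds at a low level by presenting it to a CUL3 ubiquitin ligase. Oxidants and electrophiles modify cysteines of KEAP1, NRF2 then escapes degradation, and with a small MAF partner it binds antioxidant response elements near genes for glutathione synthesis, quinone reduction, NADPH supply and drug export. Glutathione and thioredoxin are the main thiol reductants of the cell, and peroxiredoxins and glutathione peroxidases use them to remove peroxides. Oesophageal squamous cell carcinomas often carry mutations that activate NRF2, and the sources used here do not give the NRF2 status of this line.

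Antioxidant response elements have the core letters TGACNNNGC. Both strands of the promoter windows in RefSeq (build GRCh38.p14, 250 bases before to 50 bases after a start site) were searched for these letters. Windows were found for 27 of the 34 genes, and 6 of these 27 (22.2%) held a match, against 16.1% of all 27305 genes with a window and 19.6% of the 10001 tested genes with one. The windows held 10 matches, and the 8 that lie wholly before a start site are shown, so that their letters can be compared; the other 2, 1 each in TXNRD1 and ME1, reach or follow the start. In the test below GCLM and KEAP1 were lower in siZNF514, PGD, ME1 and TXNRD1 were not called, and GPX2 had too few counts to test. Of the genes that rose, 12 had a window and 0 held a match. Among the genes that fell, SRXN1, UGDH and ABCC2 also had a window without a match, and ABCC3 had no window. Each site is printed in the direction that reads TGAC, with the 9 matching bases in capitals and 9 bases on each side.
GCLM, chr1:93909447-93909473, plus strand: ggaagacaaTGACTAAGCagaaatcgt
KEAP1, chr19:10502785-10502811, plus strand: aggtcaccaTGACTAAGCagagccggg
KEAP1, chr19:10502808-10502834, minus strand: cttttattgTGACACGGCgggcgcccg
TXNRD1, chr12:104286921-104286947, minus strand: gagtcagaaTGACAAAGCagaaatcca
TXNRD1, chr12:104215671-104215697, plus strand: cacgggctaTGACTTCGCtgttgtcac
GPX2, chr14:64942850-64942876, plus strand: tccccaggaTGACTTAGCaaaaacagg
ME1, chr6:83431171-83431197, minus strand: ctcctgccaTGACTCAGCgcttctcgc
PGD, chr1:10398854-10398880, minus strand: gcacctagaTGACATTGCcccggcgag
The GCLM site begins 34 bases before its start site and the KEAP1 sites 31 and 54 bases before theirs. GCLM and KEAP1 share the same 9 letters, TGACTAAGC, which 0.103% of all 35116 windows held. The ME1 match, 137 bases before the start, also contains TGACTCA, the letters bound by AP-1 factors. The TXNRD1 sites lie 102 bases before the inner and 99 bases before the outer of its listed start sites, the GPX2 site 122 bases before its start and the PGD site 201 bases before its start. A match is a description of the letters in a window, and windows without one say nothing about NRF2 elsewhere.

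The libraries held 12175259 to 14318909 counts. ZNF514 itself was at 18.6, 19.1 and 20.6 CPM (counts scaled to a common library size) in nc and 5.02, 6.29 and 4.62 CPM in siZNF514 (log2 fold change -1.87, SE 0.14, adjusted p = 5.77e-05). The two-sided exact permutation p was 0.1, below which a design of 3 and 3 libraries cannot go. All 12 markers of squamous epithelium were present in every library, with a summed level of 2781 to 3028 CPM in nc and 2120 to 2495 CPM in siZNF514. Single markers moved unequally. In the test below KRT6A (log2 fold change -2.16), KRT14 (-1.23), KRT5, PERP, DSG3, S100A2 and TRIM29 were lower in siZNF514. EPCAM was higher (0.41), and TP63, KRT17, SFN and CDH1 were not called. Markers of fibroblasts were near 0 except in siZNF514 replicate 3, where their summed level was 17.7 CPM, against 0.46 and 0.549 CPM in the other siZNF514 libraries and 1.86 to 3.55 CPM in nc. All 7 fibroblast markers had a count in that library, COL3A1 with 112, DCN with 33 and PDGFRA with 5, and 1 and 2 of the 7 had a count in the other siZNF514 libraries. Leukocyte markers summed to 49.2 to 69.9 CPM, most of it from CD68, and endothelial markers to 1.96 to 3.31 CPM. Leukocyte markers other than CD68 also stood apart in siZNF514 replicate 3: LYZ had 49 counts there, against 0 in both other siZNF514 libraries and 2 to 7 in nc, CD14 had 13, against 0 and 1, and 4 to 11 in nc, and PTPRC had 5, against 0 in both and 0 to 1 in nc. The part of these other markers in the results was not tested, and values without siZNF514 replicate 3 stand beside NFE2L2, GCLC, TXNRD1, GPX1, GPX8, SLC48A1, OSGIN1 and TRIM16L.

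Of the 34 genes, 33 passed the filter on low counts. By edgeR's quasi-likelihood test, with p-values adjusted (Benjamini-Hochberg) over all 14250 tested genes, 14 rose, 6 fell and 13 missed an adjusted p of 0.05. In percent of the 33, 42.4% rose, against 25.5% of all tested genes, and 18.2% fell, against 25.1%. Either way 60.6% were called, against 50.6% of all tested genes, and the group values did not overlap for 23 of the 33, which is to be read against 60.3% of all tested genes. Of the genes that rose, 9 encode enzymes that remove peroxide or superoxide (5 peroxiredoxins, GPX1, GPX4, SOD1 and CAT), and those that fell were KEAP1, GCLM, SRXN1, UGDH and the exporters ABCC2 and ABCC3. The median log2 fold change, siZNF514 over nc, was 0.14, against -0.01 over all tested genes, and the range was -0.87 to 0.90.

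Scaling moved the balance of directions. With total counts alone in place of TMM factors, the median of all genes moved to -0.14, 9 of the 33 rose (27.3%, against 17.5% of all tested genes) and 11 fell (33.3%, against 33.5%). TALDO1, PRDX2, PRDX5, GPX1 and OSGIN1 then no longer passed, while GCLC, GSS, GSR, SLC48A1 and TRIM16L passed as lower. Fold changes below are relative to the bulk of genes. Of the 20 called genes, 15 kept their call under every one of 15 alternative settings: the increases of NQO1, TKT, TXN, PRDX3, PRDX4, PRDX6, GPX4, SOD1 and CAT, and all 6 decreases.

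**Figure D1:**
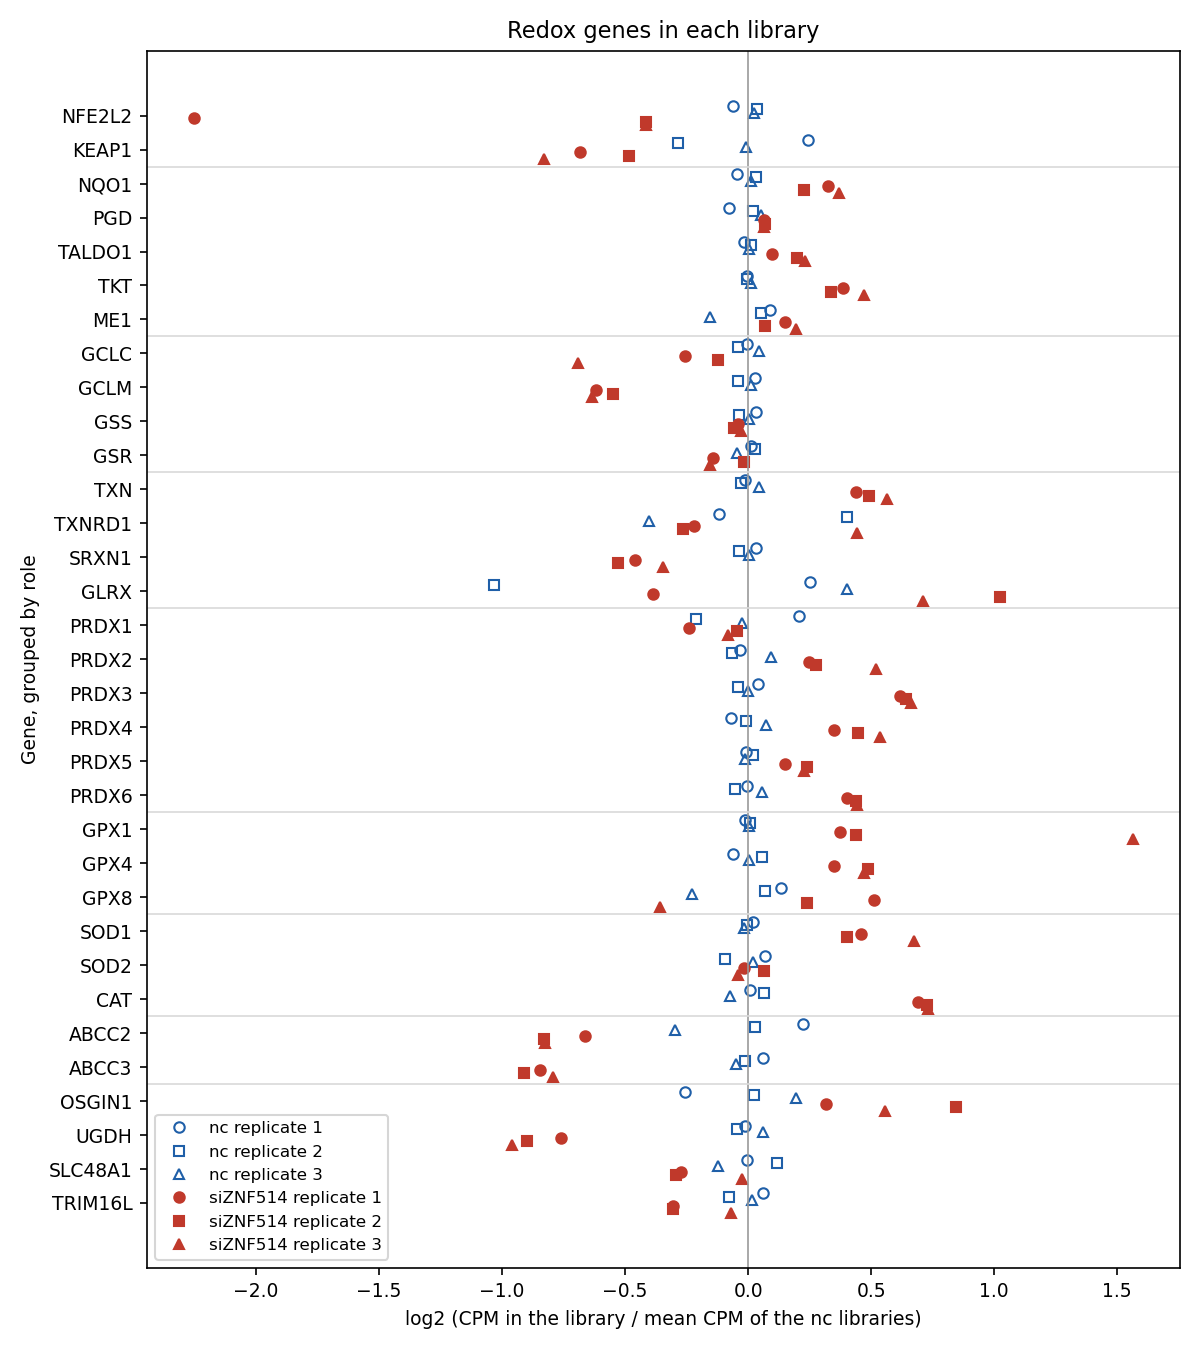
Level of each of the 33 tested genes in each library, as log2 of its CPM over the mean CPM of the nc libraries (x axis), with genes in rows grouped by role; blue open symbols are nc and red filled symbols siZNF514 libraries, with 1 symbol shape per replicate number. NFE2L2 in siZNF514 replicate 1 and GPX1 in siZNF514 replicate 3 lie far from the other libraries of their group, while PRDX3, CAT, GCLM and UGDH have tight, separate groups.

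In the deposited FPKM (fragments per unit of gene length and of depth), the highest values in nc were those of TXN (227 ± 6.08 FPKM, SD, n = 3), PRDX5 (219 ± 2.53 FPKM) and PRDX1 (191 ± 28.4 FPKM). For GPX1 and GPX4, CPM over FPKM implies a length longer than the listed locus. Orders, shares and ratios between genes in FPKM therefore depend on lengths that may not be those of the transcripts. TKT had the highest mean CPM of the 34 genes in nc (745), but 42.1 FPKM. TXN overlapped PRDX5 and PRDX5 overlapped PRDX1 in their library values. GSS followed at 102 ± 2.71 FPKM, separate from its neighbours in the order. At the other end were ABCC2 (0.889 ± 0.16 FPKM) and the nearly silent GLRX (0.0843 ± 0.0377 FPKM) and GPX2. GPX2, a glutathione peroxidase of the gut epithelium, had 6, 0 and 3 counts in nc and 0, 0 and 1 in siZNF514, too few to test. GLRX encodes a glutaredoxin, which reduces protein thiols joined to glutathione, and had 11, 5 and 12 counts against 7, 19 and 16. In the order of the 34 levels, 15 of 33 neighbouring pairs overlapped in the nc libraries.

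Of the pair of regulators, KEAP1 fell and NFE2L2 did not pass. NFE2L2 (ENSG00000116044, chromosome 2, 177227595 to 177392697, minus strand, GRCh38) was at 159, 171 and 169 CPM in nc and 34.9, 125 and 125 CPM in siZNF514. Each siZNF514 library was below each nc library, and replicate 1 was far below the other siZNF514 libraries. The difference did not pass (log2 fold change -0.81, SE 0.41, adjusted p = 0.144), with a 95% interval of -1.78 to 0.17. Without siZNF514 replicate 1, NFE2L2 was lower with a smaller change (-0.40, adjusted p = 0.00184), and without siZNF514 replicate 3 the value was -1.05 (adjusted p = 0.125). AGPS, which overlaps NFE2L2 by 54 bases on the other strand, showed no drop in that library (155 CPM, against 151 and 132 in the other siZNF514 libraries). KEAP1 (ENSG00000079999, chromosome 19, 10486120 to 10503741, minus strand) fell, from 88.5, 61.4 and 74.2 CPM to 46.5, 53.4 and 42.1 CPM (log2 fold change -0.66, SE 0.14, adjusted p = 0.00791). The KEAP1 groups did not overlap, although the nc libraries were spread. The ratio of NFE2L2 to KEAP1 in FPKM was 1.28, 1.98 and 1.62 in nc and 0.533, 1.66 and 2.11 in siZNF514. This ratio overlapped between the groups.

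Glutathione is made by glutamate-cysteine ligase, with the catalytic subunit GCLC and the modifier subunit GCLM, and then by the synthetase GSS. GCLM (ENSG00000023909, chromosome 1, 93885205 to 93909456, minus strand), whose promoter site is printed above, fell from 74.3, 70.7 and 73.5 CPM to 47.5, 49.8 and 46.9 CPM (log2 fold change -0.60, SE 0.05, adjusted p = 0.000134). The siZNF514 libraries were close together and at 66% of the nc mean. GCLC was at 89.6, 87.2 and 92.8 CPM in nc and 75.2, 82.5 and 55.6 CPM in siZNF514 and did not pass (log2 fold change -0.34, SE 0.13, adjusted p = 0.0714). Its lowest library was siZNF514 replicate 3, and without it the value was -0.18 (adjusted p = 0.0662); it passed as lower without siZNF514 replicate 2, with total counts alone, in the DESeq2 Wald test and in the limma fits to FPKM. In FPKM, GCLM over GCLC was 1.42, 1.38 and 1.35 in nc and 1.08, 1.03 and 1.44 in siZNF514. GSS (-0.04, SE 0.04; 95% interval -0.13 to 0.05) and GSR (-0.10, SE 0.05; -0.23 to 0.02), the reductase that regenerates glutathione from its disulfide with NADPH, did not pass.

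NQO1, which reduces quinones by a pair of electrons and is a standard NRF2 target, moved the other way from GCLM. NQO1 (ENSG00000181019, chromosome 16, 69706996 to 69726951, minus strand) rose from 217, 229 and 226 CPM to 281, 262 and 289.6 CPM (log2 fold change 0.31, SE 0.05, adjusted p = 0.00176). TKT, transketolase of the pentose phosphate pathway, rose from 742, 741 and 750.2 CPM to 973, 939 and 1033 CPM (log2 fold change 0.40, SE 0.04, adjusted p = 0.000177). Each lay above all nc libraries in all 3 siZNF514 libraries. TALDO1, transaldolase of the same pathway, rose by less (125, 128 and 127 to 136, 145 and 148 CPM; log2 fold change 0.18, SE 0.05, adjusted p = 0.0197) and lost its call without nc replicate 1 (adjusted p = 0.0568), without siZNF514 replicate 2 (adjusted p = 0.0571) and with total counts alone (adjusted p = 0.408). PGD, the dehydrogenase that makes NADPH in that pathway, was at 185, 198 and 202 CPM and 204, 204 and 204 CPM and did not pass (0.07, SE 0.05; -0.06 with total counts alone). ME1, the cytosolic malic enzyme and another source of NADPH, did not pass either (0.14, SE 0.08; 95% interval -0.05 to 0.32). The ME1 value was 0.0692 without nc replicate 3 and 0.0103 with total counts alone.

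The thioredoxin genes split. TXN (ENSG00000136810, chromosome 9, 110243811 to 110256640, minus strand), the cytosolic thioredoxin, rose from 316, 312 and 329 CPM to 432, 448 and 471 CPM (log2 fold change 0.50, SE 0.04, adjusted p = 0.000123). SRXN1 (ENSG00000271303, chromosome 20, 646615 to 653370, minus strand), the sulfiredoxin that repairs overoxidised peroxiredoxins, fell from 152, 145 and 149 CPM to 108, 103 and 117 CPM (log2 fold change -0.44, SE 0.06, adjusted p = 0.000674). In both genes the groups did not overlap. TXNRD1, the selenoprotein that reduces thioredoxin, was uneven in both groups, at 250.3, 359 and 205 CPM in nc and 233, 226 and 369 CPM in siZNF514. Its highest nc library and highest siZNF514 library were about level, and the test gave 0.02 (SE 0.25, 95% interval -0.57 to 0.62), with -0.24 without siZNF514 replicate 3 and 0.28 without nc replicate 2. A pseudogene of a ribosomal protein gene, RPL18AP3, lies within the TXNRD1 locus on the same strand and had 46135 counts over the 6 libraries against 21898 for TXNRD1. GLRX did not pass (0.58, SE 0.48; 95% interval -0.55 to 1.72). The GLRX value was 0.24 without nc replicate 2, 0.30 without siZNF514 replicate 2 and 0.89 without siZNF514 replicate 1. RHOBTB3 overlaps GLRX on the other strand and had 6044 counts over the 6 libraries against 70 for GLRX. It was at 58.5 to 65.4 CPM in nc and 85.5 to 92.7 CPM in siZNF514. Whether GLRX counts include its reads was not tested.

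Peroxiredoxins are abundant peroxidases that work through cysteine. Of the 6, 5 rose (83.3%, against 25.5% of all tested genes) and PRDX1 did not pass. With total counts alone 3 of the 6 rose, against 17.5% of all tested genes. PRDX3 (ENSG00000165672, chromosome 10, 119167703 to 119178833, minus strand), the mitochondrial member, had the largest change, from 332, 314 and 323 CPM to 496, 505 and 511 CPM (log2 fold change 0.64, SE 0.03, adjusted p = 1.98e-05). The siZNF514 libraries were at 156% of the nc mean with little spread. PRDX4, the member of the endoplasmic reticulum, rose from 89.2, 93.2 and 98.6 to 119, 127 and 136 CPM (log2 fold change 0.44, SE 0.06, adjusted p = 0.00115), and PRDX6, which also acts on phospholipids, rose from 282, 273 and 294 to 374, 383 and 384 CPM (log2 fold change 0.43, SE 0.04, adjusted p = 0.000161). PRDX2, a cytosolic member, rose from 115, 113 and 126 to 140.0, 143 and 169 CPM (log2 fold change 0.35, SE 0.08, adjusted p = 0.0112), while HOOK2, which overlaps it on the same strand, went from 44.4 to 54.5 CPM in nc down to 29.4 to 35.3 CPM in siZNF514. PRDX5, found in mitochondria, peroxisomes and cytosol, rose by the least (294, 301 and 294 to 329, 349.9 and 347 CPM; log2 fold change 0.21, SE 0.04, adjusted p = 0.00337). PRDX2 and PRDX5 no longer passed with total counts alone (0.23, adjusted p = 0.0556, and 0.08, adjusted p = 0.102). PRDX1, the main cytosolic member, was at 596, 447 and 508 CPM and 438, 501 and 489 CPM, overlapping groups with a 95% interval of -0.36 to 0.13. Its log2 fold change of -0.12 was -0.0015 without nc replicate 1, -0.21 without nc replicate 2 and -0.0521 without siZNF514 replicate 1.

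The 6 peroxiredoxins summed to 648 ± 30.5 FPKM in nc and 699.6 ± 23.4 FPKM in siZNF514 (SD, n = 3), and the sums overlapped between the groups. FPKM carries no TMM factors, unlike the CPM behind the calls above, so this overlap is on another scale than those calls. PRDX1 held 26.8% to 32.7% of the summed FPKM in nc and 22.2% to 23.8% in siZNF514. PRDX3 held 11.9% to 12.3% in nc and 15.7% to 16.4% in siZNF514. PRDX5 held 33.9% ± 1.91 and 33.1% ± 0.321. These shares are a description with no test.

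**Figure D2:**
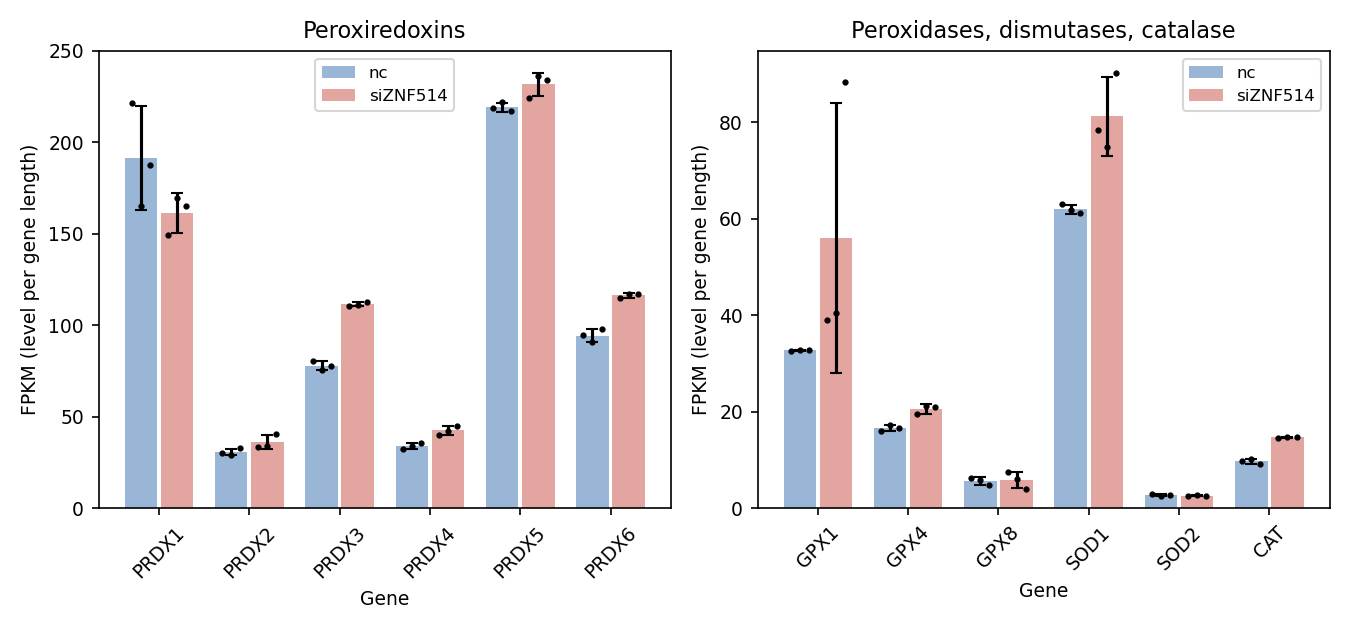
FPKM (y axis, without TMM factors) of the peroxiredoxins (left) and of glutathione peroxidases, superoxide dismutases and catalase (right). Bars are the mean of 3 libraries, error bars the SD, dots the libraries, nc in blue and siZNF514 in red. PRDX3 and CAT are higher in siZNF514 with no overlap, PRDX1 overlaps, and the GPX1 bar is raised by 1 library at 88.4 FPKM.

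Among glutathione peroxidases, GPX4 and GPX1 rose and GPX8 did not pass. GPX4 (ENSG00000167468, chromosome 19, 1103926 to 1106791, plus strand), which reduces lipid peroxides in membranes and guards against ferroptosis, went from 84.4, 91.5 and 88.1 CPM to 112, 123 and 122 CPM (log2 fold change 0.44, SE 0.06, adjusted p = 0.000725). GPX1 (ENSG00000233276, chromosome 3, 49357176 to 49358600, minus strand), the main cytosolic member, was at 116, 118 and 117 CPM in nc and 152, 159 and 346 CPM in siZNF514 (log2 fold change 0.90, SE 0.30, adjusted p = 0.0423). Its siZNF514 replicate 3 stood far above the other libraries, which were themselves above nc, and that is also the library with fibroblast marker counts. Without it the change was 0.41 (adjusted p = 0.00108). GPX1 did not pass when any 1 of the nc libraries was left out (adjusted p = 0.0941 to 0.0976) or with total counts alone (0.77, adjusted p = 0.0673). Its processed pseudogene GPX1P1, which could share reads, held 26.3% as many counts and was at 38.0 to 40.2 CPM in nc and, in siZNF514, 44.96 CPM in replicate 1, 51.3 CPM in replicate 2 and 53.5 CPM in replicate 3. GPX8, a peroxidase of the endoplasmic reticulum membrane, was at 43.2, 41.3 and 33.6 CPM and 56.1, 46.5 and 30.7 CPM, with overlapping groups (0.17, SE 0.21). The GPX8 value was -0.02 without siZNF514 replicate 1 and 0.39 without siZNF514 replicate 3 (adjusted p = 0.0595).

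CAT and SOD1 rose and SOD2 did not pass. CAT (ENSG00000121691, chromosome 11, 34438925 to 34472062, plus strand), the peroxisomal catalase that breaks down hydrogen peroxide, went from 45.7, 47.6 and 43.3 CPM to 73.4, 75.3 and 75.6 CPM (log2 fold change 0.72, SE 0.06, adjusted p = 7.83e-05). SOD1 (ENSG00000142168, chromosome 21, 31659622 to 31668931, plus strand), the cytosolic copper and zinc superoxide dismutase, went from 151, 149 and 147 CPM to 205, 197 and 237 CPM (log2 fold change 0.52, SE 0.07, adjusted p = 0.00103). In both, every siZNF514 library lay above every nc library. SOD2, the manganese enzyme of mitochondria, was at 79, 70.6 and 76.2 CPM and 74.5, 78.6 and 73.2 CPM (0.00, 95% interval -0.14 to 0.15), with overlapping groups. WTAP overlaps SOD2 on the other strand and was at 93.1 to 96.0 CPM in nc and 58.0 to 63.6 CPM in siZNF514, and without strand in the counting the reads of the pair cannot be told apart. SOD2 held 3.55% to 3.93% of the summed FPKM of SOD1, SOD2 and CAT in nc and 2.34% to 2.93% in siZNF514. This share depends on the lengths behind FPKM. In CPM, which is not scaled by length, the nc means were 149 for SOD1, 75.3 for SOD2 and 45.5 for CAT.

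**Figure D3:**
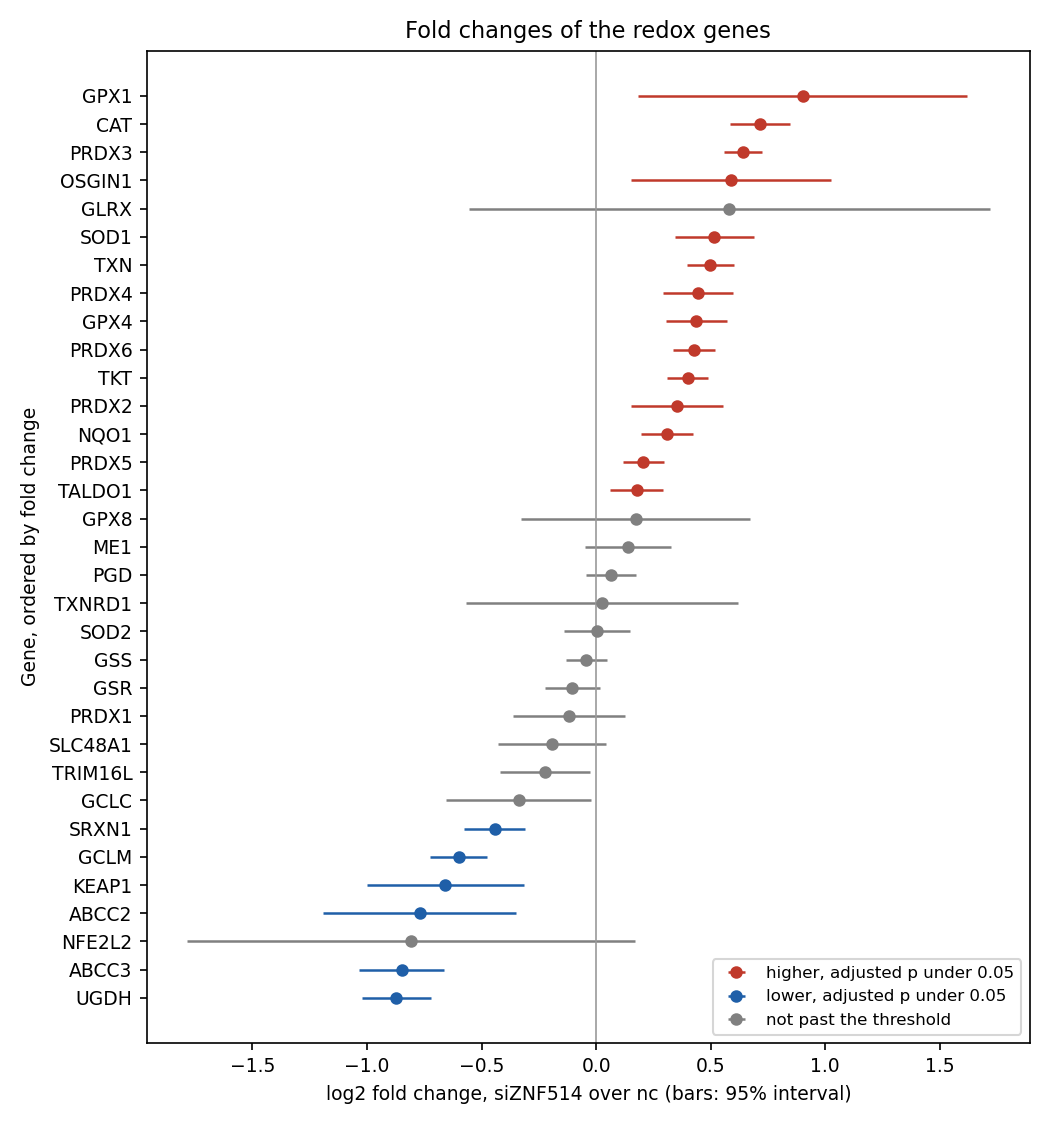
Log2 fold change, siZNF514 over nc (x axis), of the 33 tested genes in order of size, with bars for the 95% interval from the edgeR fit; red and blue mark genes past an adjusted p of 0.05. The 14 increases reach from TALDO1 (0.18) to GPX1 (0.90), the 6 decreases from SRXN1 (-0.44) to UGDH (-0.87), and NFE2L2 (-0.81) has an interval that crosses 0.

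Among the called redox genes, the steepest decreases were in UGDH and the exporters ABCC3 and ABCC2. UGDH (ENSG00000109814, chromosome 4, 39498755 to 39528311, minus strand), which makes the UDP-glucuronic acid used to conjugate drugs and to build glycosaminoglycans, fell from 119, 116 and 125 CPM to 70.7, 64.2 and 61.6 CPM (log2 fold change -0.87, SE 0.06, adjusted p = 6.27e-05). ABCC3 (ENSG00000108846, chromosome 17, 50634777 to 50692252, plus strand), an exporter of glucuronide and glutathione conjugates, fell from 28.7, 27.3 and 26.6 CPM to 15.3, 14.6 and 15.9 CPM (log2 fold change -0.85, SE 0.08, adjusted p = 0.000165). ABCC2, another exporter of conjugates, fell at a low level, from 6.68, 5.82 and 4.65 to 3.61, 3.22 and 3.22 CPM (log2 fold change -0.77, SE 0.18, adjusted p = 0.00973). In all 3 genes the highest siZNF514 library was below the lowest nc library. OSGIN1, an oxidative stress response gene, rose at a low level, from 4.97, 6.03 and 6.78 to 7.38, 10.7 and 8.72 CPM (log2 fold change 0.59, SE 0.19, adjusted p = 0.0327), and did not pass without nc replicate 1 or 2, without siZNF514 replicate 2 or 3 or with total counts alone (adjusted p = 0.0661 to 0.0967). SLC48A1, a haem transporter of endosomal membranes, did not pass (-0.19, SE 0.10; -0.28, adjusted p = 0.0537, without siZNF514 replicate 3). TRIM16L did not pass (log2 fold change -0.22, SE 0.08, adjusted p = 0.0595) and passed as lower without siZNF514 replicate 3 (-0.30); its close copy TRIM16 was at -0.28 (SE 0.13) and could share reads.

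A list of 119 other genes of the same systems was tested in the same fit. Of the 95 with enough counts to test, 32 rose (33.7%, against 25.5% of all tested genes), 18 fell (18.9%, against 25.1%) and 45 did not pass. The median log2 fold change was 0.08. With total counts alone 23 of the 95 rose and 27 fell, against 17.5% and 33.5% of all tested genes under that scaling. By role, 9 of 19 tested genes of thioredoxin, glutaredoxin and repair rose and 2 fell, 5 of 11 peroxidase and superoxide partners rose and 2 fell, and 7 of 15 regulators rose and 3 fell. None of 13 genes of detoxification and export rose and 4 fell. Glutathione S-transferases were scarce, with 9 of 18 untested, and 3 of the other 9 rose.

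The 6 increases with the smallest p-values on that list were in SECISBP2, MAFK, GSTO1, GLRX3, GLO1 and RPIA. SECISBP2, which lets ribosomes insert selenocysteine, rose from 65.4, 65.9 and 60.9 to 109.8, 109 and 109.9 CPM (log2 fold change 0.77, SE 0.05, adjusted p = 3.69e-05). MAFK, a small MAF partner of NRF2 and of its competitor BACH1, rose from 94.8, 91.2 and 88.6 to 145, 145 and 148 CPM (log2 fold change 0.68, SE 0.04, adjusted p = 3.91e-05). Both were tightly grouped and did not overlap between the groups. The other small MAF genes on that list, named after their values were seen, differed from MAFK. MAFG fell (log2 fold change -0.42, SE 0.11, adjusted p = 0.0173) and MAFF did not pass (0.36, SE 0.28). GSTO1, a transferase that also reduces glutathione mixed disulfides, rose from 126, 138 and 134 to 223, 247 and 251 CPM (0.86, SE 0.06), and the cytosolic glutaredoxin gene GLRX3 rose by 0.57 (SE 0.04). GLO1, the glutathione-dependent glyoxalase that clears methylglyoxal, rose by 0.60 (SE 0.04), and RPIA, ribose phosphate isomerase of the pentose phosphate pathway, by 0.92 (SE 0.07).

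The 6 decreases with the smallest p-values were in EPHX1, SLC1A4, SEPHS2, PALB2, MSRB1 and CHAC2. EPHX1, the microsomal epoxide hydrolase, fell from 26.5, 25.4 and 27.2 to 12.3, 12.2 and 14.4 CPM (log2 fold change -1.02, SE 0.10, adjusted p = 0.000162). SLC1A4, a transporter of small neutral amino acids, fell from 44, 48.2 and 47 to 25.7, 27.6 and 28.8 CPM (log2 fold change -0.76, SE 0.07, adjusted p = 0.000178). SEPHS2, which makes the selenium donor for selenocysteine, fell (-0.47, SE 0.05), opposite to SECISBP2 of the same pathway. MSRB1, a selenoprotein that repairs oxidised methionine, fell (-0.61, SE 0.08), and so did CHAC2, which degrades glutathione (-0.86, SE 0.13), and PALB2, a DNA repair protein that can bind KEAP1 (-0.57, SE 0.07). These 12 genes kept their calls under every alternative setting. SLC7A11, the cystine importer that feeds glutathione synthesis and a standard NRF2 target, was chosen after its values were seen and fell (log2 fold change -0.29, SE 0.07, adjusted p = 0.00929).

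**Figure D4:**
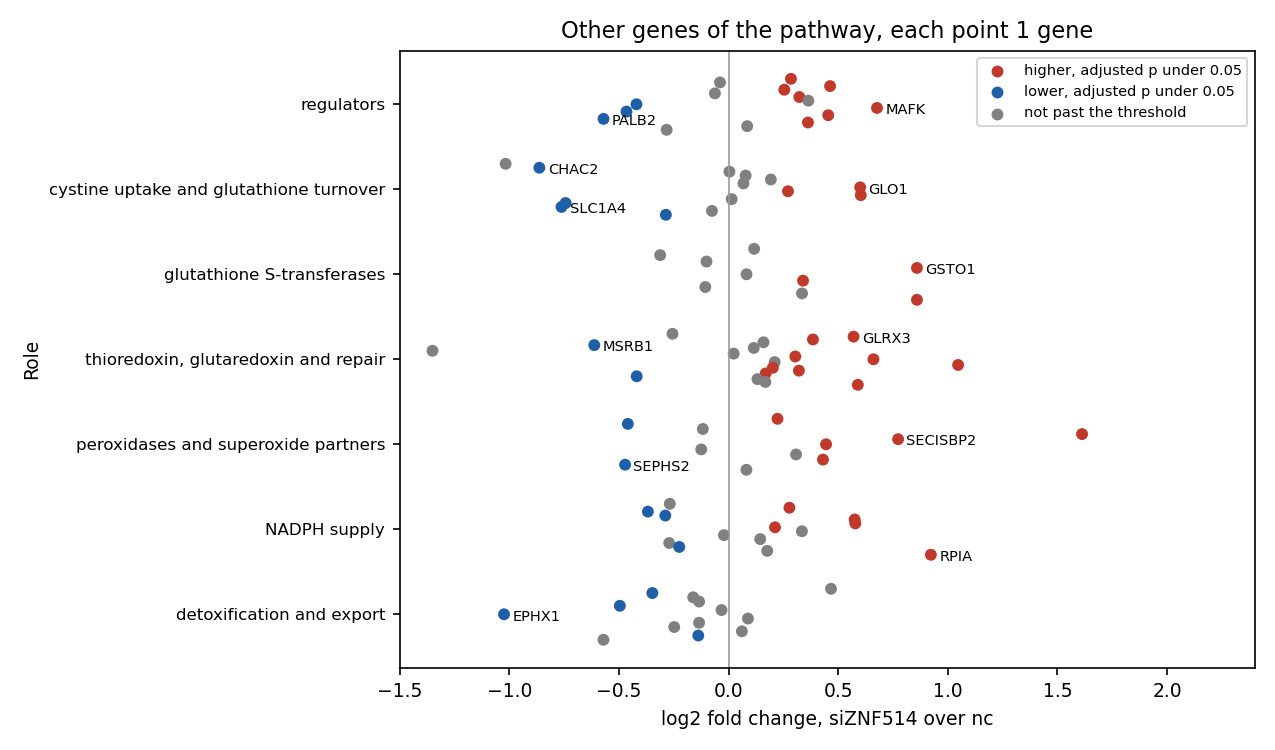
Log2 fold change, siZNF514 over nc (x axis), of the 95 tested genes on the list of other pathway genes, in rows by role, each point 1 gene; red is higher and blue lower at an adjusted p of 0.05, grey not past, and names mark the 6 smallest p-values in each direction. Red points are the majority of the called genes in all rows except cystine uptake and glutathione turnover, with 3 higher and 4 lower, and detoxification and export, with 0 higher and 4 lower.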

How the data were processed

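Per the labels, 6 libraries were made from total RNA of KYSE-150 cells and run on a NovaSeq. The tools listed in the submitters' processing notes are edgeR, StringTie 1.3.3b and HISAT2 2.0.4, and the build is hg38. No source used here gives the annotation release or the strand setting. The authors deposited whole-number counts per gene, used for the main tests, and FPKM values, a unit scaled by gene length and depth, used for levels between genes and as an alternative.

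Genes were matched by symbol, and columns to libraries by title. The 34 genes, their roles, the list of 119 other pathway genes and the markers were chosen with earlier results of these data known. The named genes were all 34, ZNF514 and the 6 smallest p-values in each direction on the other list. Replicates were compared by a chi-square of their counts, which was 7.43 to 9.69 per degree of freedom within groups, so no pair differed by as little as sampling noise.

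Counts were filtered with filterByExpr (minimum count 10, minimum total 15) in edgeR 4.0.16 (R 4.3.3), which left 14250 genes, scaled by TMM (factors 0.954 to 1.049) and tested by quasi-likelihood F tests (4 residual degrees of freedom), with a Benjamini-Hochberg threshold of 0.05. CPM values are counts over the scaled library size. The SE is the log2 fold change divided by the square root of F. The script was tested on simulated data. Alternatives were a block for replicate number, omission of each library, DESeq2 1.42.0 size factors and Wald test, total counts alone, no filter, a mean count of at least 50, and limma-trend (limma 3.58.1) on log2(FPKM + 0.1) or log2(FPKM + 1), also at a mean FPKM of at least 0.5. Of the 34 genes, 8 have an overlapping gene or a pseudogene with at least 10% of their count (NFE2L2, TXNRD1, GLRX, PRDX2, GPX1, GPX2, SOD2 and SLC48A1), and their reads may be shared.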

Additional observations from a re-analysis of the deposited data

How the results depend on the processing

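The counts of called redox genes moved by over 1.5 times with total counts alone and in the limma-trend fits to FPKM, and stayed at 14 and 6 with DESeq2 size factors. With total counts alone, 9 of the 33 rose (27.3%) and 11 fell (33.3%), against 17.5% and 33.5% of all tested genes. The same counts, 9 and 11 of 33, came from limma-trend on log2(FPKM + 0.1) and on log2(FPKM + 1). With genes kept from a mean FPKM of 0.5 upward the counts were 9 and 11 of 32. For the other pathway genes, increases in these limma-trend fits numbered 21 of 95, 21 of 95 and 19 of 86, and decreases 26, 26 and 25. Over all genes 2528 of 14250, 2534 of 14250 and 2477 of 13325 rose, and 4651, 4686 and 4122 fell. Leaving out 1 library gave 11 to 14 increases and 6 to 7 decreases among the 33 redox genes. Among the 95 other pathway genes it gave 28 to 30 increases and 12 to 16 decreases. Decreases there numbered 12 without nc replicate 1 and 12 without siZNF514 replicate 2. Over all genes it gave 3197 to 3338 increases and 3104 to 3225 decreases, of 14437 to 14696 tested. Values that changed sign were all of genes that had not passed. PGD was -0.0616 with total counts alone and -0.0597, -0.0585 and -0.0597 in the limma-trend fits. SOD2 was -0.12 with total counts alone, -0.0315 at a mean count of at least 50, -0.12, -0.0892 and -0.12 in the limma-trend fits, and -0.0391 to 0.0425 with libraries left out (-0.02 without siZNF514 replicate 2). TXNRD1 was -0.10 with total counts alone, -0.011 at a mean count of at least 50, -0.10, -0.0945 and -0.10 in the limma-trend fits, and -0.24 to 0.28 with libraries left out (-0.03 without nc replicate 1, -0.14 without nc replicate 3). GPX8 was -0.0197 to 0.39 with libraries left out. The TMM factors split by group, at 1.043 to 1.049 in the nc libraries and 0.954 to 0.962 in the siZNF514 libraries. Total counts alone and the FPKM fits both leave these factors out, so they are not separate checks of the scaling. Why the factors differ by group was not tested, nor was the cause of the other shifts. With the replicate number as a block, 3356 genes rose and 3284 fell (3629 and 3583 without it), 14 and 6 of them redox genes, and 31 and 18 other pathway genes. Deviations of same-numbered libraries correlated at 0.0075, 0.0413 and -0.0358, and those of other pairs at -0.0628 to 0.0531. No shared effect of the number was seen. With 3 libraries per group this check cannot tell whether same-numbered libraries were handled together. Depth limits GPX2, GLRX, ABCC2 and OSGIN1.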
